A study of Mus musculus with 6 samples.

Results

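Respiratory complex I was read here through the protein-coding genes whose symbol begins with Nduf, 48 of the 57010 genes in the count table. They comprise 37 subunits of the complex encoded in the nucleus, 8 assembly factors named Ndufaf, and 3 genes that carry the prefix but are counted apart, Ndufa4, Ndufa4l2 and Ndufb11b. The rule for membership is the symbol and the biotype. The RNA came from RAW 264.7, an established mouse macrophage line, in 6 samples. The cells of both groups received lipopolysaccharide, a bacterial cell wall component that drives an inflammatory state, followed by extracellular vesicles (EVs) of tendon stem cells. In 3 samples (normoxic-EV) those stem cells had been held in normoxia, and in the other 3 (hypoxic-EV) they had been preconditioned in hypoxia. Macrophages without vesicles or without lipopolysaccharide were not analysed here, the labels do not name the stem cells' species, and RAW 264.7 is 1 line.

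Complex I is the entry point of the mitochondrial respiratory chain for electrons from NADH. Its matrix arm holds the N module, which oxidises NADH, and the Q module, which passes the electrons to ubiquinone, and its membrane arm pumps protons. The catalytic core is encoded partly in the nucleus and partly in mitochondrial DNA (the mt-Nd genes). Accessory subunits, all nuclear, surround the core, and assembly factors help build the complex without remaining in it. In macrophages answering lipopolysaccharide, respiration through complex I is known to be altered while glycolysis rises.

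Between the vesicle treatments the nuclear complex I transcripts differed little. Of the 46 genes with enough counts to test, 12 were higher and 4 lower in hypoxic-EV (edgeR, Benjamini-Hochberg adjusted p under 0.05 over 13303 genes), and 30 were not called. That is 34.8% of those tested, against 44.2% of all genes tested (22.7% higher and 21.5% lower). The total number of calls thus does not set these genes apart. By direction, 12 higher and 4 lower were less even than the 3023 higher and 2854 lower over all genes. This lean was not tested. Log2 fold changes of hypoxic-EV over normoxic-EV ran from -0.35 for Ndufaf3 to 0.59 for Ndufv2, with a median of 0.03. The median absolute log2 fold change was 0.11, against 0.21 over all genes tested, and 5 of the 46 genes lay beyond 1.25-fold, or 10.9% against 33.1% of all genes tested. In 21 of the 46 genes (45.7%) the groups did not overlap, which was so for 52.8% of all genes tested. Subunits and Ndufaf genes had the same median, 0.03. The lowest p belonged to Ndufv2, in the NADH-oxidising tip of the matrix arm, and to Ndufb10, in the far end of the membrane arm.

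**Figure D1:**
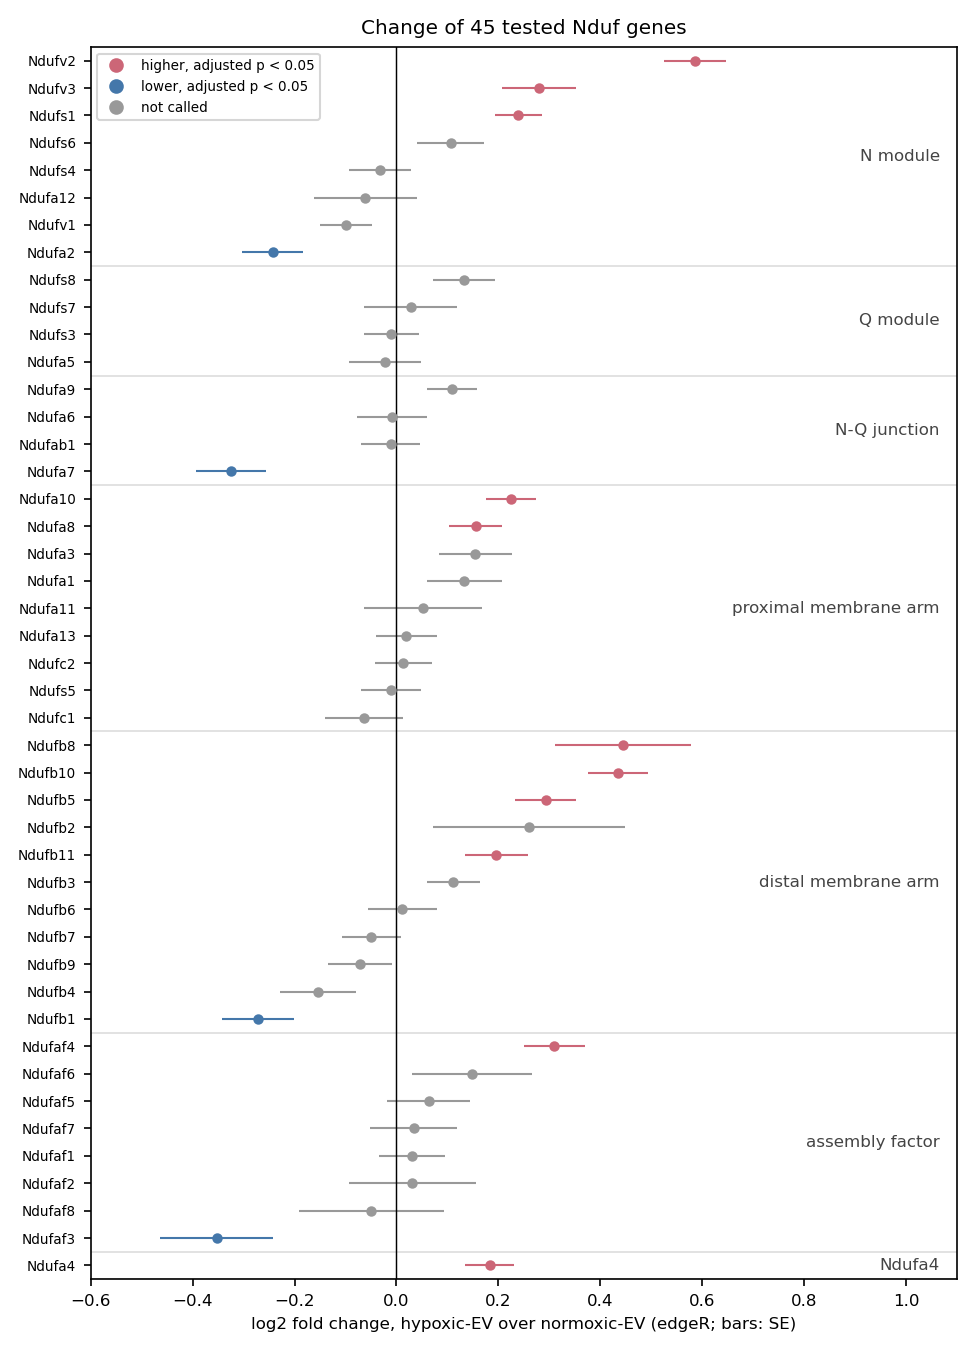
Log2 fold change of hypoxic-EV over normoxic-EV for 45 tested Nduf genes, in rows by their place in the complex, with bars for the SE of edgeR's estimate. Red points were higher and blue points lower at an adjusted p under 0.05. Most points lie close to 0, and Ndufv2 in the N module stands farthest to the right at 0.59.

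Libraries held between 16751665 and 23422328 counts. A subunit gene had between 38 and 4242 counts in a library and an Ndufaf gene between 81 and 1355. Levels within a gene are given in CPM, counts scaled to library size by TMM, and values after ± are SD over 3 libraries. Of 10 macrophage markers, none was at 0 and 9 were tested. Of these 9, 2 were higher and 6 lower, or 88.9% called against 44.2% of all genes tested. The summed level of the 10 was 10514 to 10946 CPM in normoxic-EV and 8495 to 8895 CPM in hypoxic-EV. Of 10 stromal and tendon markers, Col3a1, Col1a2, Tnmd and Thy1 were at 0 in all libraries, and the summed level was 0.838 to 1.99 CPM and 0.561 to 1.18 CPM in the same order. Of 7 lymphocyte markers, 3 were at 0, Cd3e and Cd8a among them, and the sums were 0.419 to 0.701 CPM and 0.868 to 1.08 CPM. The macrophage markers did not move together. Lyz2, the lysozyme gene, made up most of the sum and of its difference (7946 ± 208 against 6091 ± 176 CPM), and it is named after its values were seen. Csf1r, the receptor of the macrophage growth factor, rose 2.02-fold (edgeR adjusted p = 6.93e-13), while Adgre1 fell by 0.80 and Fcgr1 by 0.72 on the log2 scale. The part of these markers in the differences reported here was not tested. In bulk RNA, fewer cells in a given state and less RNA per cell cannot be told apart.

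The stretches of 200 bases just before the start of 3 members are shown first, because these members carry the contrasts described below: Ndufv2, the gene that rose most, and Ndufaf4 and Ndufaf3, partner assembly factors that moved in opposite directions. The sequences are RefSeq's on the mouse build GRCm38.p6, 5′ to 3′ on the strand of the gene, and their coordinates cannot be set beside those of the count table, which are on GRCm39. Capitals mark matches to the motifs named in the paragraph that follows. Ndufv2 lies on the minus strand (chr17:66101560-66101759), Ndufaf4 on the plus strand (chr4:24897883-24898082) and Ndufaf3 on the minus strand (chr9:108567437-108567636).
Ndufv2: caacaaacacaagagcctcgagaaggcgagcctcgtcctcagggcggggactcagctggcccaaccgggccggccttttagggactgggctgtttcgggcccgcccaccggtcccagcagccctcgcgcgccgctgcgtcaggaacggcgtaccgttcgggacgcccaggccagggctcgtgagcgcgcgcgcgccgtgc
Ndufaf4: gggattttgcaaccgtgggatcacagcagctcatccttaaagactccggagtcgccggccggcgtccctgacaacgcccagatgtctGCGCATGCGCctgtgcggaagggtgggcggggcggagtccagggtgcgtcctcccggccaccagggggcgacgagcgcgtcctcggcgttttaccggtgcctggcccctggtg
Ndufaf3: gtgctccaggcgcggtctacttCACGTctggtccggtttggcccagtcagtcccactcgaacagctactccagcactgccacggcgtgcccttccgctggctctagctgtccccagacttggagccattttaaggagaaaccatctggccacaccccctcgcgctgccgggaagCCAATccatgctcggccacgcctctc

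RefSeq promoter windows of 300 bases, 250 before the start and 50 after it, were found for 41 of the 48 genes, in 43 windows. Both strands were searched for 6 short motifs. The windows of all tested genes, used for comparison, were matched by symbol and cover 9569 symbols, where 13303 genes were tested. Matches to different motifs shared no letters in these windows. The motif of NRF1, a factor known for driving respiratory genes (GCGC, any base, then TGCGC), was in 10 windows (23.3%), against 10.2% of the windows of all tested genes and 4.6% of all windows. The same site of Ndufa5 is counted in both of its overlapping windows. The motif of YY1, AAGATGGCG, was in 6 windows (14%), against 3.13% and 1.4%. Below the windows of all tested genes were the ETS motif CCGGAAG, in 14% of member windows (18.1% and 8.86%), CCAAT, in 32.6% (38.2% and 37.4%), and the hypoxia response core ACGTG, in 20.9% (25.7% and 19.6%). The estrogen-related receptor motif AAGGTCA was above them, but in only 3 windows, or 6.98% (3.28% and 4.72%).

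The NRF1 motif was in 2 of the 10 windows of genes called higher, one of them the Ndufaf4 sequence printed above, and in none of the 4 windows (3 genes) of genes called lower. ACGTG was in 2 of the 10 windows of genes called higher and in all 4 windows (3 genes) of those called lower. Of these 4, 2 are overlapping windows of Ndufa7 that hold the same site, and Ndufa2 had no window. In the Ndufaf3 window ACGTG is read on the other strand as CACGT. The printed stretch of Ndufv2 held none of the 6 motifs. These are matches of letters, and nothing about binding was measured.

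Levels were compared between genes per length, in the deposited FPKM averaged over the 6 libraries. Subunits ran from 0.514 FPKM for Ndufb2 to 104 FPKM for Ndufb3, both in the distal membrane arm, with a median of 35.5 FPKM. Ndufaf genes ran from 3.82 FPKM for Ndufaf2 to 22.4 FPKM for Ndufaf1, with a lower median of 6.48 FPKM. Ndufb3, Ndufa2, Ndufc2, Ndufa1, Ndufa8, Ndufb6, Ndufa4 and Ndufs5 were at the top of the order, between 104 and 66.2 FPKM, and the libraries of each of these overlapped those of the next one named. The libraries of Ndufs5 did not overlap those of the next gene, Ndufa9, at 49.7 FPKM. A subunit far below the others was Ndufb8 at 2.75 FPKM, beside Ndufb2. Each of them overlaps another gene on its own strand, and how reads in such overlaps were counted is not known here. Since the subunits are present in equal copies in the complex, apart from the acyl carrier protein encoded by Ndufab1, these levels describe transcripts and not the makeup of the complex.

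**Figure D2:**
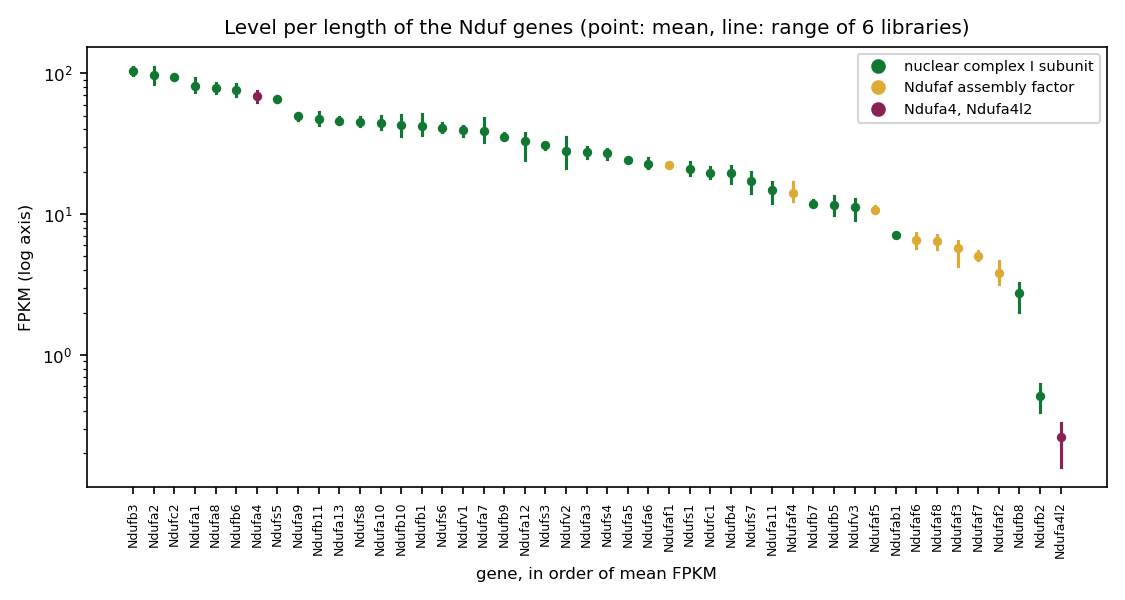
FPKM of detected Nduf genes on a log axis, ordered by the mean over 6 libraries (points), with lines from the lowest to the highest library. Ndufaf genes (yellow) lie in the lower part of the order, with Ndufaf1 highest among them at 22.4 FPKM and the subunits (green) reaching 104 FPKM.

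The core subunits of the matrix arm carry the flavin and the iron-sulfur clusters. Ndufv2 and Ndufs1, both in the N module, rose. Ndufv2, whose product holds an iron-sulfur cluster next to the NADH site (ENSMUSG00000024099, chromosome 17, 66385633 to 66408554, GRCm39), was at 50.7, 49.0 and 45.5 CPM in normoxic-EV and at 72.5, 76.9 and 68.3 CPM in hypoxic-EV. Each hypoxic-EV library was above each normoxic-EV library. Ndufv2 rose 1.5-fold, from 48.4 ± 2.62 to 72.6 ± 4.31 CPM, by 0.59 on the log2 scale (SE 0.06, edgeR adjusted p = 9.82e-08). Ndufs1, encoding the largest subunit, with several iron-sulfur clusters, was at 158, 154 and 156 CPM in normoxic-EV and at 179, 190 and 183 CPM in hypoxic-EV, again without overlap (log2 fold change 0.24, SE 0.05, edgeR adjusted p = 0.000233).

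Ndufv1, which binds NADH and the flavin and pairs with Ndufv2 in the tip of the N module, did not follow its partner. It was at 106, 106 and 111 CPM in normoxic-EV and at 103, 95.0 and 104 CPM in hypoxic-EV, with no overlap but no call (log2 fold change -0.10, edgeR adjusted p = 0.128). The ratio of Ndufv2 to Ndufv1 CPM was 0.476, 0.462 and 0.410 in normoxic-EV and 0.703, 0.809 and 0.654 in hypoxic-EV. Ndufs3, Ndufs7 and Ndufs8, core subunits of the Q module, were not called either. Ndufs8, carrier of iron-sulfur clusters near ubiquinone, was at 59.3, 54.1 and 54.3 CPM against 62.7, 56.8 and 64.0 CPM (log2 fold change 0.13, edgeR adjusted p = 0.0828). Ndufs7, which holds the last cluster before ubiquinone, was at 30.7, 28.9 and 28.3 CPM against 34.0, 24.4 and 31.3 CPM, and hypoxic-EV replicate 2 lay below all other libraries. Ndufs3, a scaffold-like core subunit, was at 69.3, 67.8 and 66.7 CPM against 69.0, 63.8 and 69.5 CPM, with the groups overlapping.

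Of the 30 accessory subunits, 7 rose, 3 fell and 20 were not called, with a median of 0.02. That is 33.3% called, against 44.2% of all genes tested. In the distal membrane arm, 4 of 11 rose and 1 fell (45.5% called, near the share of all genes). Ndufb10, at the face toward the intermembrane space (ENSMUSG00000040048, chromosome 17, 24941034 to 24943452), was at 45.9, 43.3 and 43.7 CPM in normoxic-EV and at 56.5, 61.9 and 60.9 CPM in hypoxic-EV. It rose 1.35-fold, with every hypoxic-EV library above the normoxic-EV ones (log2 fold change 0.44, SE 0.06, edgeR adjusted p = 3.86e-06). Ndufb5, a membrane-spanning subunit of the same region, was at 56.3, 49.3 and 51.9 CPM against 63.5, 67.2 and 62.2 CPM (log2 fold change 0.29, edgeR adjusted p = 0.000446). Ndufb8 had few counts, at 9.33, 6.42 and 6.40 CPM against 9.62, 10.3 and 9.98 CPM (0.45 on the log2 scale, SE 0.13, edgeR adjusted p = 0.00993). Its normoxic-EV replicate 1 was close to the hypoxic-EV values, its replicate CV of 22.8% was the highest of the subunits in that group, and its call was lost without normoxic-EV replicate 2 (adjusted p = 0.0568) or 3 (0.0688).

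The other accessory genes that rose were Ndufv3 in the N module, Ndufa10 and Ndufa8 in the proximal membrane arm, and Ndufb11 in the distal one. Ndufv3, a small subunit at the NADH site, was at 34.5, 33.6 and 29.2 CPM against 40.4, 37.2 and 40.02 CPM (log2 fold change 0.28, edgeR adjusted p = 0.0034). Ndufa10, which has the fold of a nucleoside kinase, was at 140, 137 and 135 CPM against 152, 162 and 167 CPM (log2 fold change 0.22, edgeR adjusted p = 0.000784). For both genes all hypoxic-EV libraries were above the normoxic-EV ones. Ndufa8 (0.16, edgeR adjusted p = 0.0188) and Ndufb11 (0.20, edgeR adjusted p = 0.0136) were called with smaller changes. Ndufa8 lost its call without normoxic-EV replicate 2 (adjusted p = 0.102) or hypoxic-EV replicate 1 (0.056). Ndufb11 lost it without normoxic-EV replicate 3 (adjusted p = 0.0558) or hypoxic-EV replicate 3 (0.0795).

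**Figure D3:**
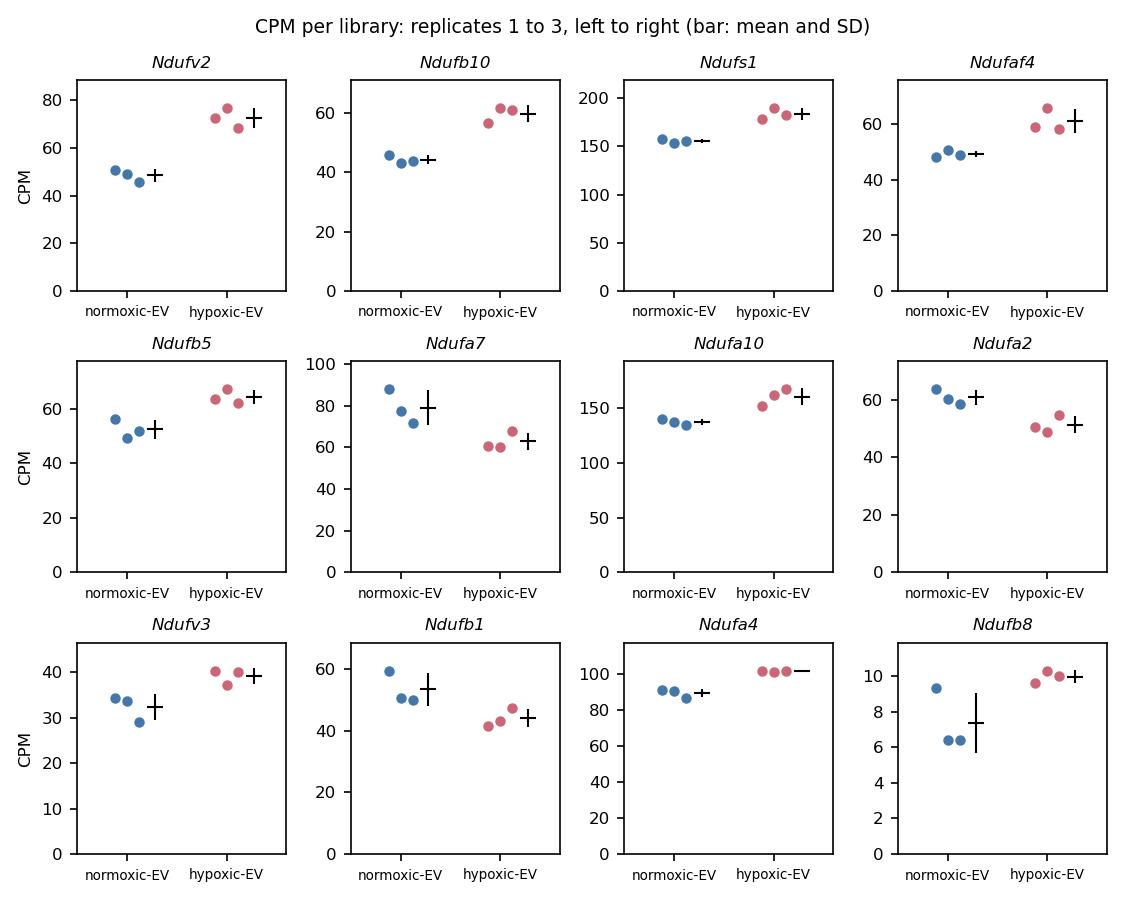
CPM of the 12 called Nduf genes with the lowest p, for replicates 1 to 3 of normoxic-EV (blue) and hypoxic-EV (red), with the mean and SD of each group as black bars on axes from 0. The groups are apart in each panel, with hypoxic-EV lower in Ndufa7, Ndufa2 and Ndufb1 and higher in the other 9.

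Against the median of the subunits, 3 accessory genes fell. Ndufa7, a matrix arm subunit where the N and Q modules meet (ENSMUSG00000041881, chromosome 17, 34043546 to 34057291), was at 87.9, 77.3 and 71.7 CPM in normoxic-EV and at 60.8, 60.0 and 67.6 CPM in hypoxic-EV. Normoxic-EV replicate 1 was well above the other libraries, and the groups still did not overlap (log2 fold change -0.32, SE 0.07, edgeR adjusted p = 0.000544). Ndufa2, an N module subunit with a thioredoxin-like fold, was at 63.7, 60.2 and 58.3 CPM against 50.3, 48.7 and 54.5 CPM (log2 fold change -0.24, edgeR adjusted p = 0.00239). Ndufb1, a short membrane subunit of the distal arm, was at 59.6, 50.7 and 49.99 CPM against 41.5, 43.3 and 47.3 CPM (log2 fold change -0.27, edgeR adjusted p = 0.00384). Within the N module, Ndufv2, Ndufv3 and Ndufs1 were thus higher while Ndufa2 was lower, so the module did not move as a unit.

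The remaining 20 accessory subunits gave no call. Ndufa3 (0.15), Ndufa1 (0.13), Ndufb3 (0.11), Ndufa9 (0.11) and Ndufs6 (0.11) were above 0 on the log2 scale, and Ndufb4 was at -0.15. Ndufb2 had a log2 fold change of 0.26 on only 2.62 and 3.16 CPM. Ndufa11, Ndufa13, Ndufc2, Ndufb6, Ndufab1, Ndufs5, Ndufa6, Ndufa5, Ndufs4, Ndufb7, Ndufa12, Ndufc1 and Ndufb9 lay between -0.07 and 0.05. By module, calls were 3 higher and 1 lower of 8 in the N module, 0 and 1 of 4 at the junction of the N and Q modules, 2 and 0 of 9 in the proximal membrane arm, and 4 and 1 of 11 in the distal membrane arm. In this order 50%, 25%, 22.2% and 45.5% were called, against 44.2% of all genes tested.

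Among the 8 Ndufaf genes 1 rose, 1 fell and 6 were not called. That is 25% called against 35.1% of the subunits and 44.2% of all genes tested. Of the 25 subunits with a mean of at least 40 CPM, 44% were called, and only Ndufaf4 of the Ndufaf genes reached that level. The part of level in these shares was not tested. The median of the subunits minus that of the Ndufaf genes was -0.0048. A class-median difference was also taken in each library, and its replicate SD was 0.0806. It was 0.0296, -0.0252 and -0.029 in normoxic-EV and 0.0952, -0.111 and 0.0532 in hypoxic-EV, where it varied more. That SD describes single libraries and is not the error of -0.0048. The genes that moved, Ndufaf4 and Ndufaf3, encode proteins known to act together in building the Q module. Ndufaf4 (ENSMUSG00000028261, chromosome 4, 24898083 to 24905001) was at 48.4, 50.7 and 49.0 CPM in normoxic-EV and at 59.2, 66.1 and 58.3 CPM in hypoxic-EV, without overlap (log2 fold change 0.31, SE 0.06, edgeR adjusted p = 0.000268). Ndufaf3 (ENSMUSG00000070283, chromosome 9, 108442736 to 108444633) was at 11.8, 11.6 and 11.7 CPM against 10.03, 7.81 and 9.68 CPM (-0.35 on the log2 scale, SE 0.11, edgeR adjusted p = 0.013). Hypoxic-EV replicate 2 was the lowest for Ndufaf3 and the highest for Ndufaf4. Without that library the log2 fold change of Ndufaf3 was -0.25 and the call was lost (adjusted p = 0.0707). The ratio of Ndufaf4 to Ndufaf3 CPM was 4.11, 4.37 and 4.18 in normoxic-EV and 5.91, 8.46 and 6.02 in hypoxic-EV.

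The groups overlapped in the other 6 Ndufaf genes. Ndufaf1, of the complex that assembles the membrane arm, was at 33.3, 32.2 and 34.4 CPM in normoxic-EV against 33.3, 34.0 and 34.8 CPM in hypoxic-EV. Ndufaf5, which hydroxylates an arginine of Ndufs7, was at 18.3, 18.8 and 19.5 CPM against 18.1, 20.7 and 20.3 CPM, and its stabilising partner Ndufaf8 was at 5.98, 5.72 and 4.71 CPM against 4.78, 5.26 and 5.64 CPM. Ndufaf7, a methyltransferase acting on the Q module, was at 18.4, 17.5 and 16.5 CPM against 16.9, 19.2 and 17.4 CPM. Ndufaf5, Ndufaf8 and Ndufaf7 thus showed no difference beyond the spread of their libraries, and of these Ndufaf8 had the least exact estimate (SE 0.143). Ndufaf2, a late-acting factor related in sequence to the subunit Ndufa12, was at 13.8, 9.52 and 10.5 CPM against 10.6, 12.8 and 11.1 CPM. Ndufaf6, a factor of early assembly, was at 8.02, 7.06 and 7.999 CPM against 7.67, 9.14 and 8.74 CPM (log2 fold change 0.15, edgeR adjusted p = 0.329).

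Assembly factors outside the name pattern were also counted. Of 12 found in the table, 3 rose and 5 fell (66.7% called against 44.2% of all genes tested), with a median of -0.12. Those with the lowest p were Dmac1, a factor of the distal membrane arm, from 23.3 ± 1.38 to 15.3 ± 1.65 CPM (log2 fold change -0.61, edgeR adjusted p = 1.06e-05), Foxred1, an oxidoreductase of later assembly steps, from 73.3 ± 1.19 to 59.0 ± 1.34 CPM (-0.31, edgeR adjusted p = 4.91e-05), and Tmem70, which also serves ATP synthase assembly, from 34.9 ± 0.892 to 44.8 ± 0.819 CPM (0.36, edgeR adjusted p = 6.13e-05). The count of 5 lower became 3 with DESeq2, with no count filter, and without normoxic-EV replicate 1 or hypoxic-EV replicate 1 or 3. A gene of the 5 also lost its call with limma-voom, upper-quartile scaling, the replicate block, and without normoxic-EV replicate 2 or 3. Over all 20 assembly factors 4 rose and 6 fell (50% called against 44.2% of all genes tested). Whether these factors differ from the Ndufaf genes was not tested.

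Ndufa4 was long counted with complex I and is now assigned to cytochrome c oxidase. It was at 91.2, 90.7 and 87.0 CPM in normoxic-EV and at 102, 101 and 102 CPM in hypoxic-EV, without overlap (log2 fold change 0.18, SE 0.05, edgeR adjusted p = 0.00393). Its paralog Ndufa4l2, known as a target of the hypoxia-inducible factor, had only 6, 3 and 7 counts against 6, 4 and 7 counts, and was not tested. The other paralog, AA467197, had 11, 14 and 8 counts against 2, 5 and 5, or 33 against 12 in all, with every hypoxic-EV library lower, and it too was below the count filter. Ndufb11b had no count in any library, which allows up to 3 counts, or 0.129 to 0.179 CPM by library.

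Mitochondrial DNA encodes the proton-pumping core of the membrane arm. All 7 mt-Nd genes rose, their median log2 fold change being 0.68, while 10 of the 37 nuclear subunits rose and 3 fell, where 22.7% of all genes tested were higher and 21.5% lower. The mt-Nd genes summed to 5989, 6417 and 5815 CPM in normoxic-EV and to 9148, 9597 and 8926 CPM in hypoxic-EV, and the 37 nuclear subunits to 2209.8, 2092 and 2087 CPM and to 2218, 2215 and 2299 CPM. The mitochondrial sums were far apart, and the nuclear sums were separated only by the gap between 2209.8 and 2215 CPM. The ratio of the sums was 2.71, 3.07 and 2.79 in normoxic-EV and 4.12, 4.33 and 3.88 in hypoxic-EV. The difference between mitochondrial and nuclear genes was not tested. mt-Nd1, the membrane subunit next to the ubiquinone site, rose from 1253 ± 48.3 to 2433 ± 57.0 CPM (log2 fold change 0.96, edgeR adjusted p = 1.18e-12), mt-Nd2 rose by 0.79 on the log2 scale and mt-Nd4 by 0.60. mt-Nd6 (13552 to 14070, minus strand) overlaps the end of mt-Nd5 (11742 to 13565, plus strand). They rose by nearly the same amount, 0.35 and 0.36, and are named after their values were seen. The strand setting is unknown, and whether mt-Nd6 counts hold reads of the other strand was not tested. No Nduf gene and 1 mt-Nd gene is in the authors' deposited table of 462 genes, whose smallest absolute log2 fold change is 1.0.

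Complexes II to V complete the chain and ATP synthesis. Of 41 nuclear genes listed for these complexes, 21 rose and 1 fell (53.7% called against 44.2% of all genes tested), with a median of 0.14 against 0.03 for the complex I subunits. The list includes the gene of cytochrome c, Cycs, and leaves out Ndufa4. Uqcrh, a hinge protein of complex III, rose by 0.63 on the log2 scale, Sdha, the flavoprotein of complex II, by 0.43, and Atp5c1, the central stalk of ATP synthase, by 0.41. The difference between the complexes was not tested. Among 11 tested regulators of respiratory genes 4 rose and 1 fell (45.5% called, near the 44.2% of all genes tested), and those with the lowest p were Lrpprc, which stabilises mitochondrial transcripts (0.35), the coactivator gene Ppargc1b (0.56) and Pprc1 (0.22). The related coactivator gene Ppargc1a had no counts. The gene that fell was Gabpa, a subunit of an ETS factor, at -0.13 on the log2 scale (edgeR adjusted p = 0.0426), and it and Ppargc1a are named after their values were seen. The call of Gabpa was lost with DESeq2, with no count filter, with the replicate block and without any 1 library except hypoxic-EV replicate 2.

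**Figure D4:**
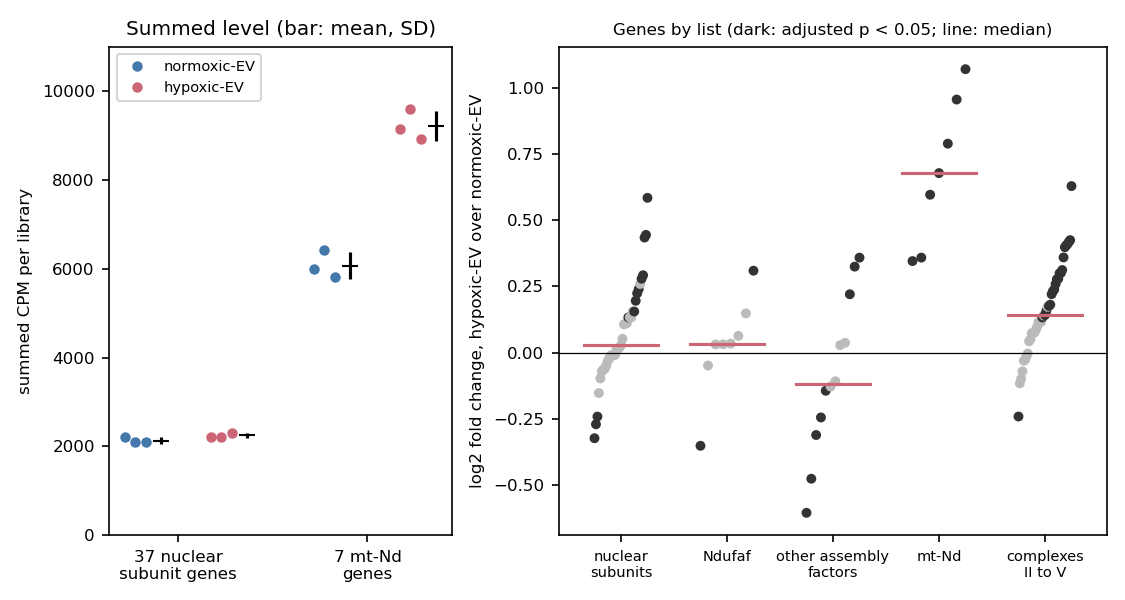
Left, summed CPM of the 37 nuclear subunit genes and the 7 mt-Nd genes in each library, with mean and SD as black bars. Right, log2 fold changes of the genes of 5 lists, dark where the adjusted p was under 0.05, with red lines at the medians. The mt-Nd sums rise from 5815 to 6417 CPM in normoxic-EV to 8926 to 9597 CPM in hypoxic-EV, whereas the nuclear sums lie between 2087 and 2299 CPM.

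Single libraries stood out within their group across these genes. Normoxic-EV replicate 1 was the highest of its group in 35 of the 46 tested genes, and hypoxic-EV replicate 3 the highest of its group in 22. The replicate CV of subunits had a median of 4.43% in normoxic-EV and 4.8% in hypoxic-EV, and that of Ndufaf genes 4.4% and 7.71%. The largest subunit CV in hypoxic-EV, 21.8%, was that of Ndufa12, an N module subunit at 52.4, 55.4 and 51.0 CPM in normoxic-EV and 58.8, 38.1 and 55.1 CPM in hypoxic-EV. Its processed pseudogene Ndufa12-ps was at 28.4, 26.7 and 26.5 CPM against 24.8, 34.8 and 26.9 CPM, so that hypoxic-EV replicate 2 was low in the gene and high in the copy. The sum of gene and copy was 80.8, 82.0 and 77.5 CPM against 83.6, 72.9 and 82.0 CPM. Reads shared by near-identical copies cannot be assigned with certainty, and the log2 fold change was -0.06 for the gene alone and -0.01 for the sum, neither of them called.

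How the counting treated strand is unknown here, so reads of genes that overlap on opposite strands cannot be told apart. Of the 48 genes 23 overlap another gene, 19 of them on the opposite strand, and for 13 the opposite partner had over 10% of the member's counts. Ndufaf3 shares 48 bases, 2.53% of its span, with the more abundant Impdh2, which rose by 0.53 on the log2 scale while Ndufaf3 fell. Ndufs1 shares 9 bases with the more abundant Eef1b2, which rose by 0.24, as Ndufs1 did. Ndufb5 shares 616 bases with Mrpl47, which rose by 0.27, and Ndufb11 shares 117 bases with Rbm10, which rose by 0.31. Ndufa2 shares 66 bases with Tmco6, which fell by 0.38. Ndufb1 shares 1081 bases, 12% of its span, with Cpsf2, whose log2 fold change of 0.06 was not called. Low-count members overlap far more abundant partners. Ndufaf2 shares 4727 bases with Smim15, which fell by 0.40, and Ndufa4l2 shares 32 bases with Shmt2, which rose by 0.60. Ndufb2 shares 146 bases with Braf, whose log2 fold change of -0.10 was not called. For these genes the counts can include reads of the partner, and how many was not tested. On the same strand, Ndufb8 lies almost wholly (99.4%) within Gm20538 and Ndufa13 wholly within Yjefn3, which had 2 and 147 counts in all libraries together. Ndufb2 and Ndufb9 share 37.2% and 62.9% of their spans with Gm42420 and Gm49356, which had no counts. Reads in such overlaps can also have gone uncounted, and how many was not tested. These partners were named after their values were seen.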

How the data were processed

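Poly(A) RNA of 6 RAW 264.7 samples, 3 per group, was sequenced (Illumina HiSeq, paired ends), per the labels' protocols. GRCm39, HISAT2, featureCounts and DESeq2 are named in the submitters' processing notes. Unknown, because not given in the sources used here, are their versions, the annotation, the strand setting and what became of multi-mapping reads. The authors deposited raw counts of reads by gene, and FPKM, which for each of the 26398 genes with a count equalled count over library total and 1 length (relative tolerance 1e-06). The authors' deposited table of their comparison gives a log2 fold change and an adjusted p-value per gene. A deposited table of normalized counts was not used.

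Counts of genes passing filterByExpr (minimum count 10, minimum total 15) were fitted with edgeR 4.0.16 in R 4.3.3, with TMM scaling, group as the term and the two-sided quasi-likelihood F-test. Adjustment was by Benjamini-Hochberg over 13303 genes, with calls at an adjusted p under 0.05. The common biological coefficient of variation was 0.0489. Groups came from the treatment labels. Separate cultures are not stated in the labels, so the p-values reflect only how much these samples varied, possibly for technical reasons. Pairs of libraries of a group differed by more than counting noise (chi-square per degree of freedom 2.72 to 5.84, genes of at least 20 counts in the pair). A count of 0 allows up to 3 counts, or 0.129 to 0.179 CPM, for counting error only. Same-numbered libraries did not deviate together (see the closing section), so no pairing was used.

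Members and lists were chosen with earlier results of these data known. Named were the Nduf genes, with values per library for the 12 called genes of lowest p, the core subunits, the Ndufaf genes, Ndufa4 and its paralogs, and called genes moving against their class median. In other lists up to 3 genes of lowest p were named. A member, counted in the totals, and a marker gene are not reported here. A listed assembly factor, Coa1, matched no row. Alternatives were DESeq2 1.42.0, limma-voom (limma 3.58.1), other scalings and count filters, length offsets, a replicate block and leaving out each library.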

Additional observations from a re-analysis of the deposited data

How the results depend on the processing

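The 16 called Nduf genes were the same 16 with DESeq2, limma-voom, RLE, upper-quartile or library-total scaling, no count filter, a filter at 5 CPM, and the merging of Ndufa12 with its pseudogene, an alternative chosen after seeing the data. Length offsets gave 19 calls, adding Ndufa3, Ndufa9 and Ndufs8. Calls over all genes were 5877 by edgeR and 5121 to 5948 in these fits. With 1 library left out, calls ranged from 13 to 18 for the Nduf genes (9 to 14 higher, 3 to 5 lower) and from 4993 to 5778 over all genes, and 11 of the 16 genes kept their call in all 15 alternatives run on them. No called Nduf gene turned direction.

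Same-numbered libraries had correlations of -0.0154, -0.0175 and -0.0176 in their deviations from the group means. The labels name no pairing, and these values cannot show whether such libraries shared a day or culture. With a replicate block 5662 genes and the same 16 Nduf genes were called.

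The difference of class medians, -0.0048, was between -0.0206 and 0.0205 under other tools, scalings and filters, 0.0074 with Ndufa4 among the subunits and -0.0017 with the other assembly factors included, and ran from -0.0435 to 0.0902 with 1 library left out, the latter without hypoxic-EV replicate 2. Uncalled genes near 0 changed sign. Ndufs3 was at 0.0055 with no count filter and 0.0186 with length offsets. With 1 library left out, the log2 fold change ran from -0.031 to 0.03 for Ndufs3, -0.1538 to 0.0246 for Ndufaf8, -0.0743 to 0.1971 for Ndufaf2, -0.0208 to 0.0777 for Ndufaf7, -0.067 to 0.1551 for Ndufs7 and -0.1738 to 0.1082 for Ndufa12. Gabpa lost its call with DESeq2, no count filter, the block and each library left out but hypoxic-EV replicate 2. The cause was not tested. Ndufa4l2, AA467197 and Ndufb11b did not pass the count filter of the main fit and were not tested in it.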
